A study of Mus musculus with 2 samples.

Results

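The regions described here are the peaks of the histone acetyltransferase KAT8 that were called in untreated mouse macrophages, had no overlapping peak after R848, and had their summit within 1000 bp of either end of a protein-coding gene. The assay was CUT&Tag: an antibody brings a transposase to the protein, and the DNA around it is cut and tagged. The cells were primary macrophages grown from mouse bone marrow in medium with 20 ng/ml M-CSF. 1 library came from cells given 100 ng/ml R848 for 2 h and 1 from cells left without it. The design text names the cells as WT (wild type), and no sex, age or number of animals is given for either group. The regions were selected on measured values, namely on the presence of a peak in the untreated list and its absence from the R848 list, so their number and their lack of an R848 peak are descriptions. There were 2646 such peaks, which is 5.09% of all 52001 untreated peaks and 7.37% of the 35905 untreated peaks without an R848 overlap. They lay at 2837 of 21887 protein-coding genes (13.0% of all such genes, and 46.9% of the 6046 genes with any untreated peak at an end). With 1 library per group, nothing below could be checked against a replicate, and no p-value is given. Intervals are 95% exact (Clopper-Pearson) binomial or Poisson intervals. They cover counting error only, and PCR copies without molecular identifiers are not independent molecules.

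KAT8, also called MOF, acetylates lysine 16 of histone H4 within the MSL complex, and it acts within the NSL complex at promoters of housekeeping genes. Acetylation of that residue loosens the packing of nucleosomes. In macrophages, R848 is an agonist of TLR7, an endosomal receptor that signals through MyD88 to NF-kB and MAP kinases and induces cytokine genes. A peak list shows where tagged fragments pile up above background. It says nothing of expression, and with bulk cells, fewer cells carrying KAT8 at a site and less KAT8 per cell cannot be told apart.

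The promoters of 5 genes show the sequence at some of the strongest of these summits. They were chosen by the fold of their peak among genes whose promoter window holds the summit. A listed promoter window held the summit of only 743 of the 2646 peaks (28.1%), and the peak of highest fold, at Ripk1, is not among those printed. Each sequence is the RefSeq promoter of the build GRCm38.p6 (the assembly of mm10), 300 bases on the gene's own strand, from 250 bases before the start to 50 after it. Capitals mark motifs found on either strand: GGGCGG (GC box of SP and KLF factors), CCAAT (NFY), CCGGAAG (ETS factors), TGACTCA (AP-1) and CACGTG (E-box). No base falls in more than 1 marked motif.
Zfand6 (chr7:84689908-84690207, minus strand): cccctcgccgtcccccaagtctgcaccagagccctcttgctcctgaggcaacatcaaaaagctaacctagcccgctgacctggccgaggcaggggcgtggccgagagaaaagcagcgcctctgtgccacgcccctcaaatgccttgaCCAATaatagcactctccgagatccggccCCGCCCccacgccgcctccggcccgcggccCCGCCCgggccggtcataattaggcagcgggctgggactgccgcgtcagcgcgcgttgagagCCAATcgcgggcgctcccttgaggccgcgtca
Bbs10 (chr10:111298429-111298728, plus strand): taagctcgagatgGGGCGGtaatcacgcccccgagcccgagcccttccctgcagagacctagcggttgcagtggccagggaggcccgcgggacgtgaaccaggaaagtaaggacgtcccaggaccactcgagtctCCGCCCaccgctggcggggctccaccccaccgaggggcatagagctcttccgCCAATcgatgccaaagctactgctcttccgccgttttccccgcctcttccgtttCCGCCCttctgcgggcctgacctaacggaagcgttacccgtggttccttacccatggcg
Ears2 (chr7:122067037-122067336, minus strand): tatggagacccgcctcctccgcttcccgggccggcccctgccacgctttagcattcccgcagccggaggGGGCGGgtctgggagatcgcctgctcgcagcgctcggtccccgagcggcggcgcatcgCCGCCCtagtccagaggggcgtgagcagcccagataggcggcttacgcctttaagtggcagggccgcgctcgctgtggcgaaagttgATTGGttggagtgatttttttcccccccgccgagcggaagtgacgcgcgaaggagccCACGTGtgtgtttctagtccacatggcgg
Med19 (chr2:84678152-84678451, plus strand): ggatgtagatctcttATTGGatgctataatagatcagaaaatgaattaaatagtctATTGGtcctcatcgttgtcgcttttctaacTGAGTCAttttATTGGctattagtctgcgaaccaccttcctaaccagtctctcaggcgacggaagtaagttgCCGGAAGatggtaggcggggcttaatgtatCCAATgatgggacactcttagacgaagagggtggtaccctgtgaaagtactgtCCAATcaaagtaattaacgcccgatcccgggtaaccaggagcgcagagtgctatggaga
Myl6b (chr10:128498636-128498935, minus strand): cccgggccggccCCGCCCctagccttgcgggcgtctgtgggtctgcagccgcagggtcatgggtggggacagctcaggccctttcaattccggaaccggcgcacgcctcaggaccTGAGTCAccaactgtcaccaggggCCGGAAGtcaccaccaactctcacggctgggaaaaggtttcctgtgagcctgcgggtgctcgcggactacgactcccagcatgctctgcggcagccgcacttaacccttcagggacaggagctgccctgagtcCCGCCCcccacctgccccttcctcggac
The Zfand6, Bbs10, Ears2 and Myl6b windows were rich in G and C (68%, 64.7%, 67% and 67.3%) and held 30, 27, 33 and 20 CpG dinucleotides. The Med19 window differed from them, with 45% G and C, 12 CpG dinucleotides, no GC box and 5 CCAAT boxes. Counted from the first printed base, the summits lay at base 285 in Zfand6, 255 in Bbs10, 137 in Ears2, 100 in Med19 and 76 in Myl6b. A listed promoter of Tmx2 runs over mostly the same bases as that of Med19, on the other strand, and is not printed. Across all 17492 protein-coding genes with a listed promoter, a GC box was present in 46.3%, CCAAT in 39.2%, CCGGAAG in 11.9%, CACGTG in 7.91% and TGACTCA in 4.56%. A match is a description of letters, not a bound site.

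The R848 library was the shallower of the pair by the measure that the peak values give. The genome-wide background solved from them was 2.62 overlapping fragments in the R848 library and 3.37 in the untreated library, a ratio of 0.777. The lowest summit pileup called was 7 fragments in R848 and 8 in untreated. The part of depth in the absence of an R848 peak was not tested directly, since a peak list gives no coverage at places where no peak was called. With each member's pileup multiplied by that ratio, 2370 of 2646 (89.6%, 88.3 to 90.7) still reached 7 fragments. With the lower 95% Poisson limit of the pileup multiplied in the same way, 230 (8.69%, 7.65 to 9.83) did.

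Most of these peaks were low and narrow. Fold over background, the authors' own value for each peak, had a median of 2.75 (quartiles 2.52 and 3.20, range 1.47 to 5.95), against a median of 3.66 in the 2966 gene-end peaks of the same list that overlapped an R848 peak, called shared below. The median width was 275.5 bp (quartiles 207 and 369) against 477 bp in shared peaks, and 21.5% of the members were 200 bp wide, the narrowest width in the list, against 3.88% of shared peaks. The median summit pileup was 11.5 fragments against 16. A q-value of 0.05 or less was reached by 780 members (29.5%, 27.7 to 31.3) and by 76.4% (74.8 to 77.9) of shared peaks. Of the members, 730 had a fold of at least 3, 98 of at least 4 and 16 of at least 5. Only 42 reached a −log10 q of 5 and 2 reached 10. Because an R848 overlap is more frequent at strong peaks, these differences describe the choice of the members and support nothing else. In the untreated list, the share of gene-end peaks that were untreated-only was 82.6% at pileups of 8 and 9, 60.8% at 12 and 13, 119 of 743 at 17 to 21 and 4.69% at 22 or more. The opposite class, the 1761 gene-end peaks found only in the R848 list, resembled the members, with a median width of 264 bp, a median fold of 2.96 and 32.5% of q 0.05 or less. Its genes numbered 1893 (8.65% of all), and 3437 genes (15.7%) had a shared untreated peak.

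**Figure D1:**
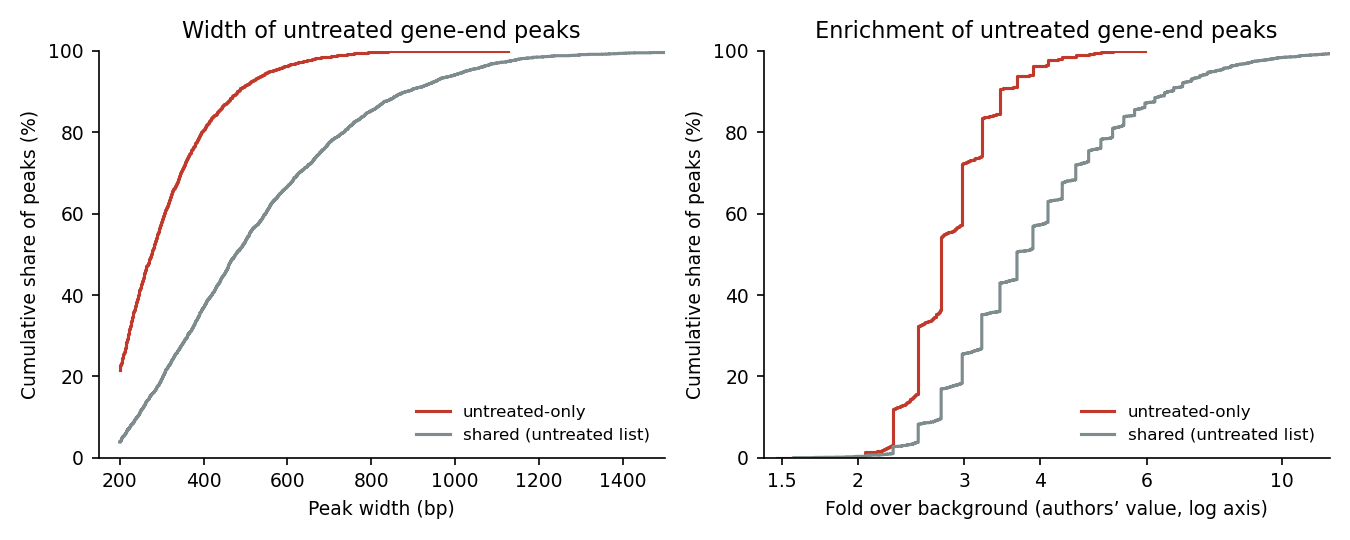
Cumulative share of untreated gene-end peaks (vertical axis, %) by width in bp (left) and by fold over background on a log axis (right), for untreated-only peaks (red) and shared peaks (grey). The untreated-only curve lies left of the shared curve in both panels, with medians of 275.5 against 477 bp and 2.75 against 3.66; the steps at the right come from whole numbers of fragments.

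Nearest R848 peaks were mostly far away. The gap to the next R848 peak had a median of 17163 bp, and 1703 members (64.4%) had none within 10000 bp. At the other end, 56 members had an R848 peak less than 100 bp away and 160 had one at 100 to 499 bp. The members closest to an overlap were the peak at Golgb1 and Eaf2 and the one at Cyp11b1, each 1 bp from an R848 peak, and that at Isoc2a, 4 bp away. Just on the other side of the rule, shared peaks at Defa32 and Dclk3 overlapped an R848 peak by 3 bp and that at Naa38 by 4 bp. At the edge of the window, the summits at Trafd1, Dpp3 and Kap lay 1000, 999 and 998 bp from a gene end, and those at Stra8, Gipr and Tafa5, 1001 bp away, were left out.

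Position relative to the gene was not used by the rule beyond the window. Strand was known for the nearest gene of 2127 members, and 1742 of these (81.9%, 80.2 to 83.5) lay at the 5′ end and 385 at the 3′ end. The 5′ share was 95.8% (94.9 to 96.5) in shared peaks and 1055 of 1406 (72.7 to 77.3%) in R848-only peaks. This gap remained between peaks of like pileup. At 10 and 11 fragments 81.7% (78.9 to 84.3) of members lay at a start, against 93.4% (90.1 to 95.9) of shared peaks, and at 17 to 21 fragments 83.0% (73.8 to 89.9) did, against 97.5% (95.7 to 98.6). For 177 members the nearest gene was shorter than 2000 bp, so that the windows of its ends meet, and without them the 5′ share was 83.0%.

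Around the start, the members' summits had another spread than those of shared peaks, without regard to pileup. Of the 1742 members at a start, 24.2% had the summit in the 250 bp before it, 35.4% in the first 250 bp of the gene, 15.3% at 250 to 499 bp and 15.3% at 500 to 1000 bp. Shared peaks had 38.7%, 37.1%, 9.02% and 7.79% in the same intervals. The median distance to the start was 183 bp in members, against 129 bp in shared and 230 bp in R848-only peaks. Inside the gene lay 65.9% (63.6 to 68.1) of the members at a start, against 54.0% (51.9 to 56.0) of shared and 64.0% (61.0 to 66.9) of R848-only peaks. Counting any protein-coding gene and both ends, 68.4% (66.6 to 70.2) of members were inside a gene, against 57.9% of shared and 65.9% of R848-only peaks. Between peaks of like pileup this gap was smaller where most members lie, and here too the match does not undo the choice. At 10 and 11 fragments 70.8% (67.9 to 73.5) of members and 64.7% (59.6 to 69.5) of shared peaks were inside a gene. At 12 and 13 fragments these shares were 67.3% (64.0 to 70.6) and 61.6% (57.3 to 65.9). The intervals overlap in both cases, which is no test of a difference. At 8 and 9 fragments the order was the reverse, 69.9% of members and 77.6% of shared peaks. At 14 to 16 fragments the values were 64.4% and 61.8%, at 17 to 21 they were 64.7% (55.4 to 73.2) and 54.5% (50.5 to 58.4), and at 22 or more 67.6% (50.2 to 82.0) and 49.7% (46.1 to 53.4). The 385 members at a 3′ end had a flat profile with a median distance of 510 bp. A listed start of any gene, the nearest gene included, lay within 1000 bp of 39 of them (10.1%). They were also weaker: 18.4% had a q of 0.05 or less, against 32.7% of the members at a start.

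**Figure D2:**
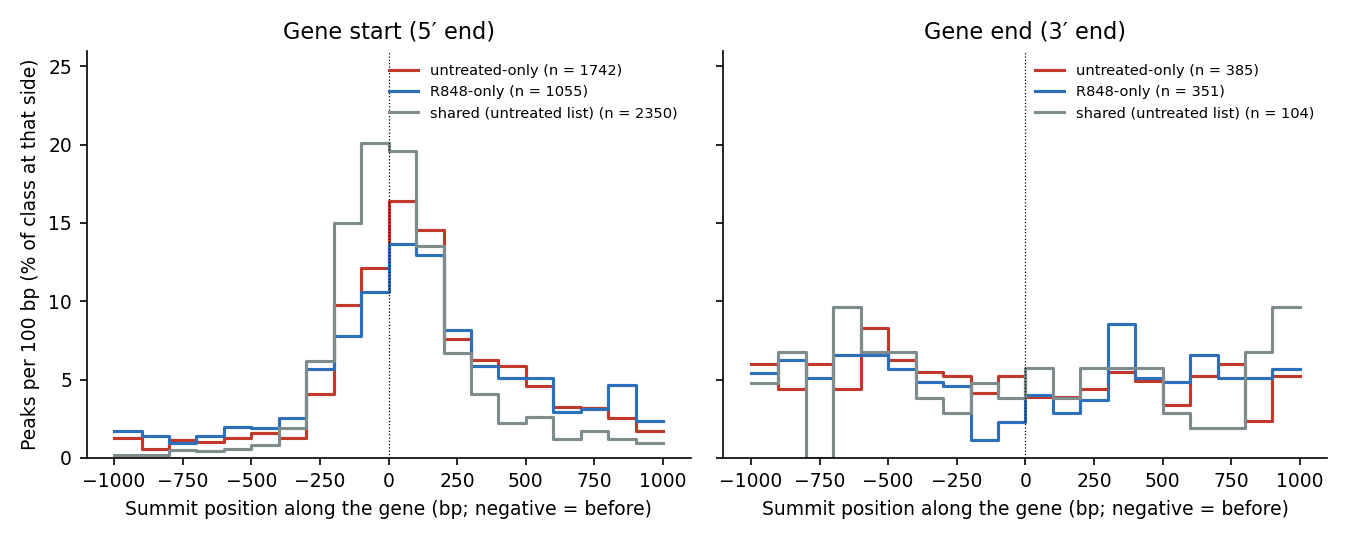
Summit positions in steps of 100 bp around the 5′ end (left) and 3′ end (right) of the nearest gene, as the share of each class at that side (vertical axis, %), with negative values before the end in the direction of transcription. Untreated-only peaks (red) reach their highest share in the first 100 bp of the gene (16.4%), shared peaks (grey) in the last 100 bp before it (20.1%), and no class has such a maximum around the 3′ end itself.

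A single summit can serve several genes. Exactly 2 genes had an end within reach of the summit at 335 members, and 3 or more genes at 8 members. Together these were 13.0% (11.7 to 14.3), against 19.7% of shared peaks. In 170 cases with 2 genes both ends were starts, and in 168 of these the genes ran on opposite strands, as divergent pairs do. Conversely, 2669 genes had 1 member peak, 165 had 2 and 3 had more: Sec24c, a subunit of the COPII coat of vesicles, Marchf2, a membrane-bound ubiquitin ligase, and Pramel41. Among the 2837 genes, 2387 (84.1%) had no other gene-end peak in either list. A further gene-end peak shared by both lists was present at 231 genes and an R848-only peak at 240, of which 151 had both kinds at the same end.

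The highest fold belonged to a peak at the overlapping starts of a divergent pair, Ripk1, a kinase of TNF receptor signalling and cell death, and Serpinb6a, an inhibitor of proteases. Its fold was 5.95, from 25 fragments at the summit (Poisson interval 16.2 to 36.9), and the nearest R848 peak was 133377 bp away. Zfand6, a zinc finger protein, followed with 5.49 and 23 fragments, and the next R848 peak was 23219 bp away. Plekho1 came next with 5.36 and 24 fragments, and its summit was 688 bp past the 3′ end of the gene. A fold of 5.26, from 22 fragments, was found at 6 further places. They were Bbs10, a chaperonin-like protein of cilia; the divergent pair Ears2, the mitochondrial glutamyl-tRNA synthetase, and Ubfd1; the pair Med19, a Mediator subunit, and Tmx2, a thioredoxin-related membrane protein; Myl6b, a myosin light chain; Rnh1, an inhibitor of ribonucleases; and Wdr91, a regulator of endosomes. Gene pairs count here as 1 place. Myl6b had a shared peak as well, with an R848 peak 4633 bp from the member. The promoters printed above belong to Zfand6 and to the genes of this fold, apart from Rnh1, Wdr91, Ubfd1 and Tmx2.

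Lower in the same ranking stood Lrp1, an endocytic receptor, at 5.11. A fold of 5.04 was shared by Trim28, the corepressor of KRAB zinc finger proteins, Usp28, a ubiquitin protease, Vti1b, a SNARE protein of endosomes, Dnajc16 and D030056L22Rik. Dclre1c, the Artemis nuclease of end joining, and Ranbp9 had 4.81. The peak at H4c9 (4.96), a histone H4 gene of a multicopy cluster, is uncertain, since reads from near-identical copies cannot be told apart. By significance the first was Zfp978 with a −log10 q of 10.7. It belongs to a cluster of zinc finger genes, and its 46 fragments stood on a local background of 11.3 and gave a fold of 3.83; read placement is uncertain there too. The widest member was 1126 bp long at the 3′ end of Ppdpf, with a fold of 2.98.

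**Figure D3:**
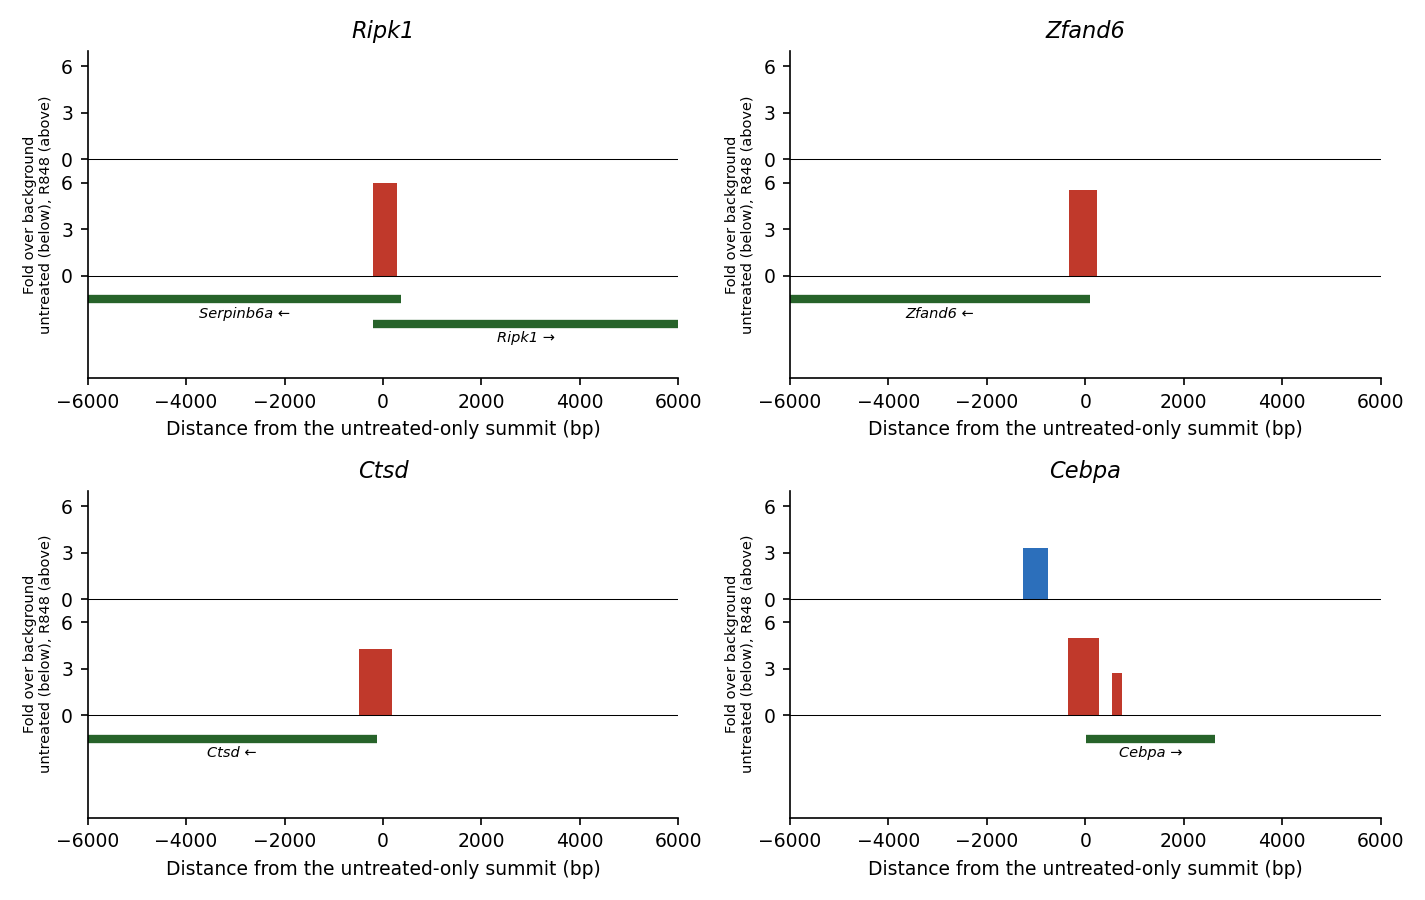
Peaks of the R848 list (blue, upper track) and the untreated list (red, lower track) within 6000 bp of the untreated-only summit at 4 genes; bar width is peak width, bar height is the authors' fold over background, and green lines are protein-coding genes with arrows for strand. Ripk1, Zfand6 and Ctsd have 1 untreated peak and no R848 peak in view, while Cebpa has an R848-only peak upstream of 2 untreated-only peaks.

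Cebpa, which encodes the myeloid lineage factor C/EBPα, is a case where both lists had a peak and no overlap. In the R848 list its peak ran from 35118024 to 35118531 on chromosome 7, with a fold of 3.32 and 11 fragments, and its summit was 957 bp before the start. In the untreated list the stronger peak ran from 35118927 to 35119555, with a fold of 5.0 and 22 fragments (13.8 to 33.3), and its summit was 7 bp before the start. A second untreated peak, of fold 2.73, lay 656 bp inside the gene. The R848 peak ended 395 bp before the first of these.

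Of 12 macrophage genes used to check the label, Spi1 (fold 2.77), which encodes PU.1, and Cebpa had a member, and 5 had any R848 gene-end peak and 5 any untreated one. Csf1r, Adgre1, Itgam, Fcgr1, Lyz2 and Tyrobp had none in either list. Of the markers of other cells, a member was present at 0 of 22 lymphoid genes, 2 of 17 granulocyte and dendritic ones (Epx and Siglech, 2.52 each), 1 of 12 stromal and endothelial ones (Tek) and 2 of 28 genes that belong to unrelated tissues (Actn2 and Myh7). With so few genes a list, only shares far from the 13.0% of all genes could be seen. R848-only peaks were present at 3 lymphoid genes, 2 genes of unrelated tissues and no gene of the other lists. A KAT8 peak is no measure of expression, so these counts do not grade the purity of the cells.

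Of 49 gene lists, 33 had a larger share of genes with a member than the 13.0% of all protein-coding genes, and 1 had none. The median over all genes with a member of the best fold per gene was 2.75. The 13.0% counts genes with no KAT8 peak at all. The counts below are therefore also given out of the list's genes with any untreated gene-end peak. Over all genes, 46.9% of those had a member. Lists not described below lay on both sides of this second share. Rab GTPases had 7 of 31 and splicing factors and hnRNPs 10 of 34, while numbered Zfp genes had 62 of 114 and TRIM proteins 8 of 12. No test was made, and nothing is called particular to a list.

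Of 37 genes for lysosomal enzymes and membrane proteins, 13 (35.1%) had a member, out of 20 with any untreated gene-end peak. An R848-only peak was present at 2 genes (5.41%, against 8.65% of all genes) and a shared one at 10. The median fold of the 13 was 3.20 and 7 reached a q of 0.05. Ctsd, the aspartic protease cathepsin D, had the highest fold, 4.27, from 27 fragments (17.8 to 39.3) on chromosome 7 from 142387457 to 142388132, 122 bp before its start, and the nearest R848 peak was 97081 bp away. Ctsl, the cysteine protease cathepsin L, had 2 members near its 3′ end (3.90 and 2.73) and a shared peak besides. Hexa, a lysosomal glycosidase gene, had 3.89. Gusb, β-glucuronidase, had 3.43.

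For proteasome subunits the count was 11 of 39 (28.2%), out of 15 with any untreated gene-end peak. An R848-only peak was present at 3 genes (7.69%, against 8.65% of all genes) and a shared one at 4. None of the 11 had another gene-end peak in either list. Over all genes with a member, 84.1% had no other. The core subunits Psma4 (4.58), Psma5 (3.43), Psmb6 (3.43) and Psma7 (3.20) led, and their nearest R848 peaks were 22047, 46206, 36690 and 17423 bp away. The median gap of all members was 17163 bp. Of 50 ubiquitin-specific proteases, 12 (24.0%) had a member, out of 22 with any untreated gene-end peak, led by Usp28 (5.04). An R848-only peak was present at 6 genes of that list (12%), and 6 of the 12 also had another gene-end peak. Of 34 vacuolar protein sorting genes, 9 (26.5%) had a member, out of 17 with any untreated gene-end peak, none above a fold of 3.20. An R848-only peak was present at 4 of the 34 (11.8%).

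The mTORC1 pathway list had 12 of 39 genes (30.8%), out of 17 with any untreated gene-end peak. An R848-only peak was present at 6 genes of the list (15.4%, against 8.65% of all genes), and a shared one at 6. Fnip1, a partner of folliculin, had 4.12, Lamtor1 and Lamtor2 of the Ragulator complex 3.66 and 3.43, and Seh1l of the GATOR2 complex 3.20. Lamtor2 had a shared peak at its start as well, with an R848 peak 315 bp from the member. The kinase gene Mtor itself had a weak peak of fold 2.52, 14 bp inside its start. Of 37 aminoacyl-tRNA synthetases 10 (27.0%) had a member, out of 18 with any untreated gene-end peak. An R848-only peak was present at 3 of the 37 (8.11%). None of the 10 had another gene-end peak, against 84.1% without another over all genes with a member. The highest folds were at Ears2 (5.26), Vars2 (3.81) and Sars2 (3.66). The Sars2 peak is the same one as at Mrps12, a mitochondrial ribosomal protein, since the genes start side by side. Translation initiation factors had 12 of 52 (23.1%), cytosolic ribosomal proteins 16 of 76 (21.1%), mitochondrial ribosomal proteins 15 of 75 (20.0%) and DNA repair genes 10 of 50 (20.0%). Out of the genes with any untreated gene-end peak these were 12 of 28, 16 of 38, 15 of 30 and 10 of 25, near or below the share of 46.9%. R848-only peaks were present at 4, 14, 5 and 1 of their genes (7.69%, 18.4%, 6.67% and 2%), against 8.65% of all genes.

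Immediate early genes, not all of them transcription factors, had the largest share, 9 of 25 (36.0%), out of 16 with any untreated gene-end peak. R848-only peaks were also frequent there, at 5 of 25 genes (20.0%, against 8.65% of all), and shared ones were present at 11. The median fold of the 9 was 2.90, against 2.75 over all genes with a member, and several members lay beside an R848 peak. Ier5 had the highest fold, 4.87, from 22 fragments, with an R848 peak 2878 bp away. Klf4 and Fosb had 2.98 each. For Atf3 (2.60) the nearest R848 peak was 10 bp away, for Klf10 (2.40) 99 bp, for Klf6 (2.98) 122 bp and for Ier2 (2.44) 395 bp. Only 1 of the 9 genes, Ier5, had a q of 0.05 or less, and 5 of the 9 had another gene-end peak.

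Lists close to TLR7 signalling differed little from all genes by the first share. By the second, the counts were small and lay on both sides of the 46.9% of all genes. Toll-like receptor signalling had 4 of 32 (12.5%), out of 10 with any untreated gene-end peak, with Tab2 (3.66), Tbk1 (3.43), Irak2 (2.98) and Ticam1 (2.52). Tab2 had a shared peak near its start as well, with the R848 peak (fold 4.70) 708 bp from the member of fold 3.66. Inflammatory cytokines and chemokines had 6 of 34 (17.6%), out of only 7 with any untreated gene-end peak, and as many, 6, had an R848-only peak. Only 3 of the 6 genes with a member had no other gene-end peak. NF-kB subunits and their feedback genes had 3 of 27, out of 14, and interferon-stimulated genes 3 of 30, out of 5. Each of these last lists had 3 genes with an R848-only peak, and Toll-like receptor signalling had 4. The MAP kinase cascade had 6 of 48 (12.5%), out of 26 with any untreated gene-end peak. In that cascade 7 genes had an R848-only peak and 23 a shared one. Tlr7, Myd88 and Tnf had no member. Among KAT8 and its partners, Kat8 had a weak peak of fold 2.29 and 9 fragments 780 bp past its 3′ end, which is also near Prss8, and Kansl1, an NSL subunit, had 2.29 at a summit 76 bp before its start. Genes of 2 other histone acetyltransferases, Ep300 (3.89) and Crebbp (3.43), had peaks 718 and 223 bp before their starts. By the first share, the low end held lymphoid markers (0 of 22), nuclear pore proteins (1 of 20, out of 10 with any untreated gene-end peak) and MHC and antigen presentation (1 of 31, out of 12). Olfactory receptors (26 of 1106, out of 29) and vomeronasal receptors (5 of 353, out of 8) stood there too. By the second share these 2 receptor lists lay above the 46.9% of all genes. R848-only peaks were about as frequent there as members, at 24 olfactory (2.17%) and 7 vomeronasal (1.98%) receptor genes. Shared peaks were present at only 4 and 3. Both receptor lists are large families of similar sequence where read placement is uncertain.

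**Figure D4:**
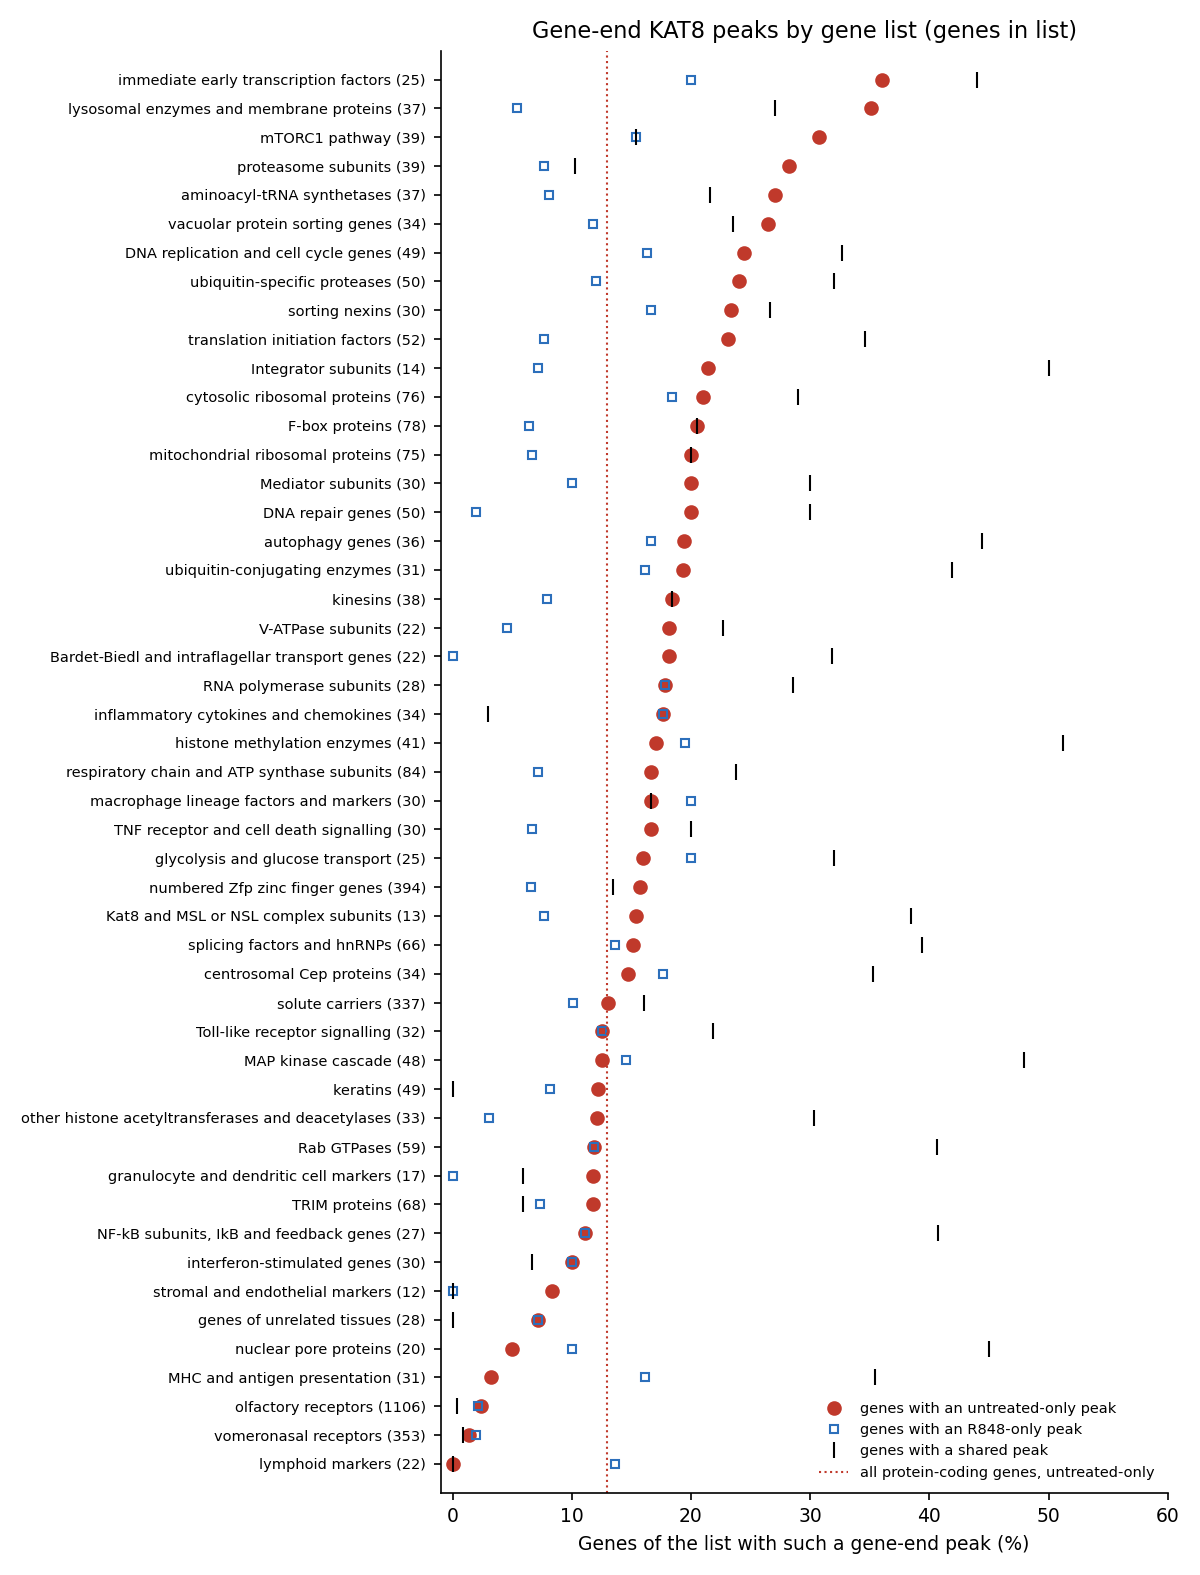
Share of the genes of each list (horizontal axis, %) with an untreated-only (red circle), R848-only (blue square) or shared (black bar) gene-end peak, lists ordered by the untreated-only share with their gene numbers in brackets. The dotted line marks the 13.0% of all protein-coding genes. Immediate early genes (labelled as transcription factors, 36.0%), lysosomal genes (35.1%), the mTORC1 pathway (30.8%) and the proteasome (28.2%) stand farthest to its right. For many lists the shared share is the larger one.

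In base composition the members' promoters lay between shared promoters and the rest, as did those of R848-only peaks. Of the genes with a member at the start, 1893 had a listed promoter, with a median of 60.7% G and C and 20 CpG dinucleotides in 300 bases. Shared promoters had 65% and 25, R848-only promoters 60.7% and 20, promoters of all genes 56.3% and 13, and promoters without a gene-start peak 53% and 7. At least 10 CpG dinucleotides were found in 79.2% (77.3 to 81.0) of the members' promoters, against 93.1% (92.1 to 94.0) of shared and 77.0% (74.4 to 79.4) of R848-only ones. The share of genes with a member at the start was 4.20% of those with 0 to 4 CpG dinucleotides, 13.8% at 10 to 19, 15.9% at 20 to 29 and 15.3% at 30 or more, so it levelled off. For shared peaks it was 1.51%, 15.0%, 27.3% and 36.4% in the same ranges.

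**Figure D5:**
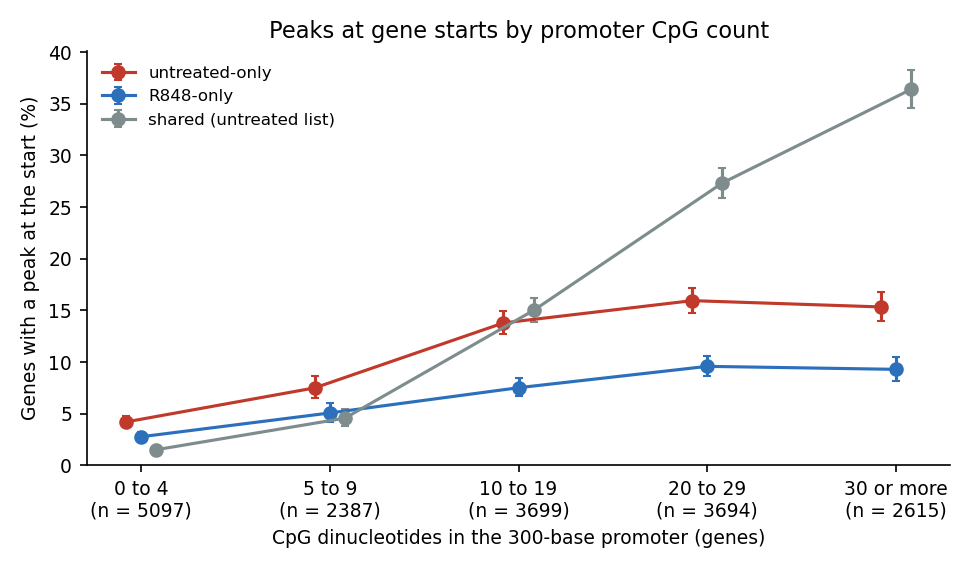
Share of genes with a peak at the start (vertical axis, %, with 95% exact binomial intervals) by the number of CpG dinucleotides in the 300-base promoter, for untreated-only (red), R848-only (blue) and shared (grey) peaks. The untreated-only share levels off between 13.8% and 15.9% from 10 CpG dinucleotides on, while the shared share reaches 36.4%.

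The motifs did not all follow this order. A GC box was present in 62.3% (60.1 to 64.5) of the members' promoters, against 77.4% (75.8 to 79.0) of shared, 63.4% (60.5 to 66.2) of R848-only and 46.3% of all promoters. CCAAT was found in 37.2% (35.1 to 39.5) of the members' promoters and in 45.5% (43.6 to 47.4) of shared ones, which puts the members near the 39.2% of all promoters. CCGGAAG was present in 16.7%, against 17.9% of shared and 11.9% of all promoters. The YY1 motif AAGATGGCG was present in 3.49%, against 3.33% and 1.92%, and the NRF1 motif GCATGCGC in 5.81%, against 6.84% and 3.61%. TATAAA was found in 8.14%, against 5.03% of shared and 13.3% of all promoters. The AP-1 motif TGACTCA was found in 3.01% (2.29 to 3.88), against 2.48% of shared, 3.78% (2.75 to 5.06) of R848-only and 4.56% of all promoters. For GAGGAAGT, a PU.1 motif, the values were 2.85% in members and 3.14% in all promoters. Each motif was searched on both strands in windows of the same length, and the shares were not adjusted for base composition. Of all members, 28.1% had the summit in a listed promoter window, against 49.6% of shared and 22.1% of R848-only peaks. The shares therefore describe promoters, and mostly not the sequence under the members' summits.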

How the data were processed

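KAT8 CUT&Tag peak lists of 2 samples were used, 1 per group, grouped by the treatment label. Per the submitters' processing notes, Bowtie 0.12.8, MACS2 2.2.7.1, DiffBind and mm10 were used, with no role or order stated; caller settings and whether there was a control are likewise not given in the sources. The deposited columns, as the authors made them, hold a score, the ratio of signal to background (fold), −log10 values of p and q, and a summit offset in bp per peak. The lists reach down to a −log10 p of 2.01, and no read totals were used. Pileup and background were solved from fold, taken as (pileup + 1) / (background + 1), and a Poisson tail, within 0.05 in −log10 p, for 99.7% of R848 and 99.8% of untreated peaks.

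A shared base (1 bp) made an overlap (own code, checked with bedtools 2.31.1 and tested on simulated data). Gene ends were read from RefSeq genes on GRCm38.p6. Strand and starts came from RefSeq promoters, which cover 17492 of 21887 genes, and each gene's promoter is the listed one nearest its 5′ end. A peak was given to every gene with an end in reach, and the start or end was that of the nearest gene. Tables were handled in python 3.11.15 with pandas 2.3.3, numpy 2.4.6 and scipy 1.17.1 and drawn with matplotlib 3.10.9.

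The members, gene lists and rules were chosen with earlier results of these data known. Named genes are the 25 of highest fold, up to 4 per list, the 3 widest and 3 most significant peaks, those at the edges of the rule, genes with 3 or more members, and Kat8, Tlr7, Myd88, Tnf, Spi1, Ripk1, Ctsd, Ep300 and Crebbp. Not all of them are described, an item that the rule selects is not reported here, and further list members (Gusb, Mtor, Atf3, Klf10 and Ier2) were named after their values were seen. Alternatives were stricter q-values, other windows and overlaps, equal list lengths and scaled pileups.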

Additional observations from a re-analysis of the deposited data

How the results depend on the processing

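With untreated peaks of q 0.05 or less there were 780 members at 903 genes, 66.4% inside a gene, 88.9% at a start, with a median width of 320.5 bp, fold 3.43 and promoter G and C of 62.3%. With −log10 q of at least 5 these values were 42, 51, 57.1%, 91.2%, 509.5 bp, 4.81 and 65.7%, and 12 lists in place of 33 exceeded the share of all genes. A window of 500 bp gave 88.1% at a start and a median width of 283 bp. One of 3000 bp gave 4523 members, 4721 genes, 64.9% inside, 67.3% at a start, 262 bp and 59.7% G and C. Where only an overlap of 50% of both peaks counted as shared, 84.6% lay at a start, with 294 bp, a fold of 2.91 and 61.7% G and C. With the untreated list shortened to the length of the R848 list, 84.0% lay at a start and the fold was 2.94. Scaled pileups of at least 7 gave a fold of 2.80, and peaks at the end of 1 gene only, an alternative chosen after seeing the data, gave 66.4% inside. Of 80 recomputed values, 49 stayed within counting error, or within 1.5 times for counts. The stricter thresholds select stronger peaks by construction; the cause of the other moves was not tested. At every setting the 5′ end held most members whose strand was known. The main limits are 1 library per group, an R848 library with the lower background, and strand for 80.4% of members. No paired analysis was possible because each group has 1 library.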

Other observations

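Few of the peaks lay on the sex chromosomes. On chromosome X, 19 of 966 protein-coding genes (1.97%, 1.19 to 3.05) had a member, among them Phf8 and Kdm5c, which encode histone demethylases. The share on single autosomes ran between 11.1% and 16.8%. R848-only peaks (1.14% of genes on X) and shared peaks (2.80%) were also scarce there, and among genes on X with any untreated gene-end peak 45.2% had a member, near the 46.9% of all genes. On Y the count was 8 of 256 genes.

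A few members stood on a high local background. The highest pileup, 192 fragments, was at Sfi1 on chromosome 11, over a background of 130.1, and its fold of 1.47 was the lowest of all members. Gm7592 on chromosome 1 had 53 fragments and a fold of 1.93, and Gm40363, Gm40367 and Gm40369, neighbours on chromosome 6, had 48, 51 and 43 fragments and folds of 1.89, 1.57 and 1.90. These genes were picked after their values were seen. In contrast, 82.4% of the members were at the genome-wide background.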
